A study of Danio rerio with 20 samples.

Results

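Glucocorticoid handling and response genes were followed in cells that carry an olig2 reporter, taken from the spinal cord of adult zebrafish after a lesion or a sham operation. They are the genes named hsd11b2, nr3c1, nr3c2, fkbp5, tsc22d3, ddit4, sgk1, klf9, per1a and zbtb16a, matched by symbol with case ignored and also without the paralog letter. This gave 11 rows of the 32266 genes in the count table, because 2 rows carry the symbol PER1, one on chromosome 7 and one on chromosome 10. In RefSeq names of assembly GRCz12tu, per1a lies on chromosome 10 and per1b on chromosome 7, and the 2 rows are written here as PER1 of chromosome 10 and PER1 of chromosome 7. The genes were chosen with the difference between lesion and sham known, so their levels and fold changes in that comparison are given as a description, without a test. Whether each passed the threshold used across all genes is also given only as a description.

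RNA was sequenced from 10 lesion and 10 sham libraries of eGFP-positive cells of adult Tg(olig2:eGFP) fish, a line in which the olig2 promoter drives green fluorescence. Lesion fish had the cord transected and were sampled 7 days post lesion (7 dpl), while sham fish had the same operation with the cord left intact. From each of 9 cords per group a piece about 0.5 mm long was taken, on the rostral side of the lesion or at the matching level in sham fish, and the pieces were pooled before live fluorescent cells were sorted. Because 1 pool may have supplied all 10 libraries of a group, p-values measure the spread between libraries, which may be technical, and not that between fish.

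Cortisol is the main glucocorticoid of zebrafish, and it enters cells and binds the glucocorticoid receptor, which moves to the nucleus and changes the transcription of its targets. Hsd11b2 oxidises cortisol to inactive cortisone and so limits how much hormone reaches the receptors of a cell. Several targets feed back on the pathway or on growth, and in mammals the oligodendrocyte lineage expresses the glucocorticoid receptor and responds to the hormone. In RNA from many cells, fewer cells of a type and less RNA per cell cannot be told apart.

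Library totals were 7371761 to 9196227 counts in lesion libraries and 7134670 to 10264810 counts in sham libraries. The number of genes with a count separated the groups, at 13562 to 16518 in lesion libraries and 10328 to 13117 in sham libraries. Among the lineage genes, olig2 averaged 7490 ± 1352 CPM in lesion libraries and 8302 ± 1163 CPM in sham libraries, and sox10 averaged 672 ± 86.5 and 719 ± 209 CPM in lesion and sham libraries (SD, n = 10 each; CPM, the count of a gene relative to the scaled total of its library). Neither passed edgeR's quasi-likelihood test after Benjamini-Hochberg adjustment (adjusted p = 0.63 for olig2 and 0.911 for sox10). Of 13 microglia and macrophage genes matched, 2 of the 3 MPEG1 rows, c1qa, c1qb and laptm5 had no count. The third MPEG1 row (ENSDARG00000043093) had 1 count in lesion libraries and 120 counts in sham libraries. Counts of cd74a came from 4 lesion libraries (1945 counts, up to 237 CPM) and 2 sham libraries (622 counts, up to 82.4 CPM). Those of ptprc numbered 21 in lesion libraries and 276 in sham libraries. The summed level of the list was 0.107 to 237 CPM in lesion libraries, the highest from cd74a, and 0 to 90.4 CPM in sham libraries. One library stood apart: over the 788 called genes that are not among the 11, sham replicate 2 lay 0.305 of the way from the sham mean to the lesion mean, whereas the other sham libraries lay between -0.158 and 0 and the lesion libraries between 0.906 and 1.26. Results that rest on it are given with and without it. The library titles end in a letter, A or B, called the row here, with 6 row A and 4 row B libraries in each group, and a number that runs over different ranges in the 2 groups, so the number and the group cannot be told apart.

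The enzyme gene hsd11b2 (ENSDARG00000001975, GRCz10 chr7:34840575-34854897, minus strand) was far lower in lesion libraries. Its lowest, median and highest levels were 0, 13.6 and 41.3 CPM in lesion libraries, and 59.4, 206 and 396 CPM in sham libraries. Every lesion library lay below every sham library, and the single lesion library without a count was replicate 7, in which 0 allows up to 0.412 CPM (3 counts). The means were 15.5 ± 13.2 CPM in lesion libraries and 217 ± 109 CPM in sham libraries (SD, n = 10 each), a log2 fold change of -3.81 ± 0.59 (SE), or 14.0-fold lower. The log2 fold change was -4.23 ± 0.54 among row A libraries and -3.02 ± 1.17 among row B libraries, and it was -3.92 without sham replicate 2. Relative to its mean the gene varied more among lesion libraries, with a coefficient of variation of 85.4% there and 50.3% among sham libraries.

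**Figure D1:**
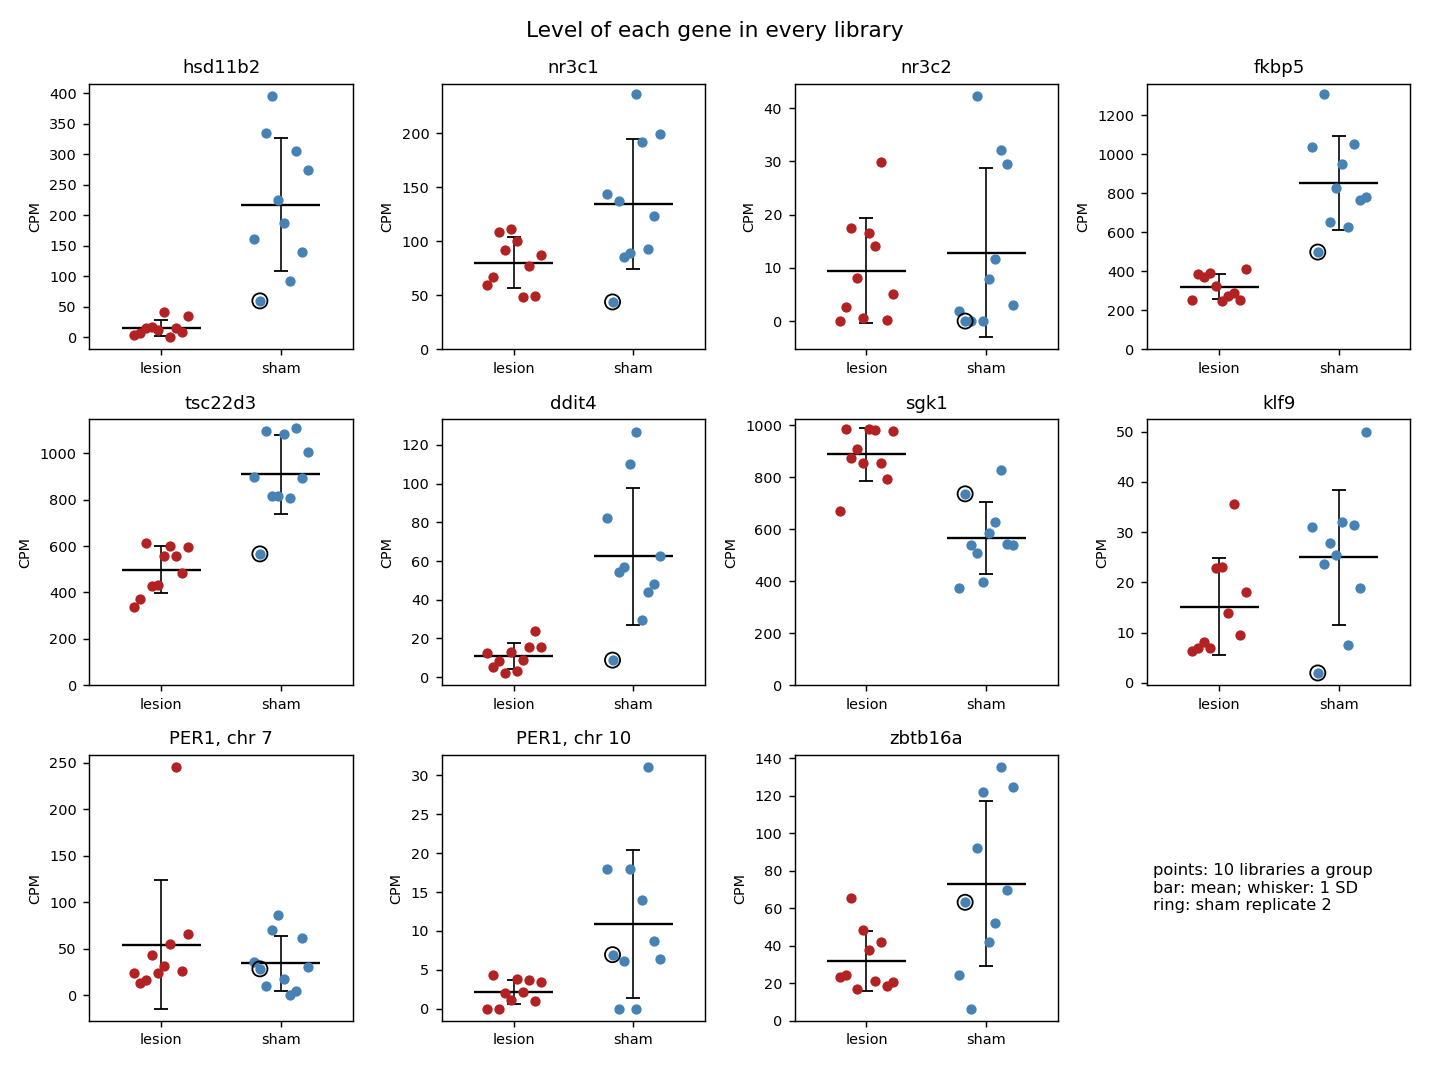
Levels of the 11 genes in each library, in CPM on a linear axis for each gene, with lesion libraries on the left and sham libraries on the right of each panel. Bars are the mean and whiskers the SD of 10 libraries, and the ring marks sham replicate 2; hsd11b2 and fkbp5 are the genes in which no lesion library reached the lowest sham library.

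The levels of both receptor genes overlapped between the groups. The glucocorticoid receptor gene nr3c1 (ENSDARG00000025032, GRCz10 chr14:23449465-23504144) had 48.6, 82.0 and 112 CPM as lowest, median and highest levels in lesion libraries, and 43.7, 130 and 236 CPM in sham libraries. The ranges overlapped, and the lowest of all 20 values came from sham replicate 2. The log2 fold change was -0.74 ± 0.26, and -0.87 without sham replicate 2. The mineralocorticoid receptor gene nr3c2 (ENSDARG00000102082, GRCz10 chr1:36203197-36356009), whose product also binds cortisol, was scarce and scattered in both groups. It had 0, 6.60 and 29.8 CPM as lowest, median and highest levels in lesion libraries, and 0, 5.41 and 42.3 CPM in sham libraries. It had a count in 9 lesion libraries and 7 sham libraries. Its log2 fold change was -0.44 ± 1.19, and it was of opposite sign in the rows, at -1.49 ± 1.70 in row A and 1.76 ± 1.58 in row B, so no direction is given.

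The gene fkbp5 encodes a co-chaperone of Hsp90 that holds the receptor in a state of low hormone affinity and is itself a receptor target in mammals (ENSDARG00000028396, GRCz10 chr6:41098522-41118517). It had 249, 307 and 410 CPM as lowest, median and highest levels in lesion libraries, and 499, 805 and 1310.5 CPM in sham libraries. The groups did not overlap. The means were 321 ± 64.7 CPM in lesion libraries and 852 ± 241 CPM in sham libraries (SD, n = 10 each), a log2 fold change of -1.41 ± 0.16, or 2.66-fold lower. After adjustment for how many genes each library detected, a number that itself separates the groups, the log2 fold change of fkbp5 was -0.996.

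Among the targets, tsc22d3 and ddit4 were lower in lesion libraries. The gene tsc22d3 (ENSDARG00000075666, GRCz10 chr14:27700651-27703881) encodes the leucine zipper protein known as GILZ in mammals. Its lowest, median and highest levels were 336, 520 and 614 CPM in lesion libraries, and 566, 895 and 1108 CPM in sham libraries. In 7 lesion libraries it lay below every sham library, and the groups overlapped through sham replicate 2 alone. The log2 fold change was -0.87 ± 0.13, and -0.95 without that library. The gene ddit4 (ENSDARG00000037618, GRCz10 chr12:48356811-48358937) encodes an inhibitor of mTORC1 signalling that is known as REDD1. It had 2.19, 10.7 and 24.1 CPM as lowest, median and highest levels in lesion libraries, and 8.83, 55.6 and 127 CPM in sham libraries. Here too the overlap came from sham replicate 2, since the next sham library had 29.4 CPM. The log2 fold change was -2.52 ± 0.49, or 5.73-fold lower, and -2.67 without sham replicate 2.

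The kinase gene sgk1 (ENSDARG00000025522, GRCz10 chr23:31713708-31766778), a target of both receptors in mammals, was higher in lesion libraries. It had 669, 891 and 986 CPM as lowest, median and highest levels in lesion libraries, and 373, 541 and 828 CPM in sham libraries. In 8 lesion libraries it lay above every sham library. The means were 888 ± 103 CPM in lesion libraries and 567 ± 139 CPM in sham libraries (SD, n = 10 each), a log2 fold change of 0.65 ± 0.13. It was 0.62 ± 0.17 in row A and 0.70 ± 0.21 in row B.

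The remaining targets are transcription regulators, and their groups overlapped. The gene klf9 (ENSDARG00000068194, GRCz10 chr5:25475077-25478012), a zinc finger factor, had 6.46, 11.7 and 35.6 CPM as lowest, median and highest levels in lesion libraries, and 1.99, 26.7 and 50.0 CPM in sham libraries, with a log2 fold change of -0.72 ± 0.55. The gene zbtb16a (ENSDARG00000007184, GRCz10 chr21:23124769-23271216), which the names table writes as ZBTB16, encodes the zinc finger repressor known as PLZF. It had 17.2, 23.9 and 65.4 CPM as lowest, median and highest levels in lesion libraries, and 6.45, 66.5 and 135 CPM in sham libraries, with a log2 fold change of -1.20 ± 0.42. Its lowest value was in a sham library, replicate 3, so no lesion library lay below all sham libraries.

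The circadian repressor PER1 differed between its 2 rows. PER1 of chromosome 7 (ENSDARG00000012499, GRCz10 chr7:50547395-50571221) had 13.5, 29.0 and 245 CPM as lowest, median and highest levels in lesion libraries, and 0, 29.3 and 86.6 CPM in sham libraries. The medians were nearly equal, and the log2 fold change of 0.67 ± 0.71 rested on lesion replicate 8, without which it was -0.04. PER1 of chromosome 10 (ENSDARG00000056885, GRCz10 chr10:22841347-22862023) was the least abundant of the 11 per length. It had 0, 2.13 and 4.31 CPM as lowest, median and highest levels in lesion libraries, and 0, 7.81 and 31.0 CPM in sham libraries, with a count in 8 libraries of each group. Every one of the 8 sham values above 0 exceeded the highest lesion value. Its log2 fold change was -2.33 ± 1.06. The pair may share reads, and how the counting divided such reads was not tested.

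All 11 genes passed the filter on low counts. By the threshold used across all genes (edgeR adjusted p under 0.05), 5 of the 11 were called, 1 higher and 4 lower, against 7.58% of the 10467 genes tested called in either direction, 4.34% higher and 3.24% lower. The 5 were sgk1, hsd11b2, fkbp5, tsc22d3 and ddit4, and all 5 were called in each of 20 fits that left out 1 library. Since the genes were chosen on this contrast, nothing is read from their count, from the calls or from how many fits kept them. Fold changes were below 0 in 9 of the 11 and above 0 in 2, counting nr3c2, whose sign differed between the rows, and PER1 of chromosome 7, at -0.04 without lesion replicate 8, with a median log2 fold change of -0.87, against 0.03 over all genes tested. Groups did not overlap in 2 of the 11, hsd11b2 and fkbp5, against 2.01% of all genes tested in either direction and 0.554% with lesion lower. Without sham replicate 2 they did not overlap in 4 of the 11. The share over all genes without that library was not computed, so nothing is read from this count. Among the 4 lesion and 4 sham libraries of row B alone, only fkbp5 was called by edgeR, and after adjustment for how many genes each library detected edgeR called 0 of the 11, with 5 at an unadjusted p under 0.05. For the 5 genes called without that adjustment, the adjusted log2 fold changes were -3.48 for hsd11b2, -0.996 for fkbp5, -0.57 for tsc22d3, -3.20 for ddit4 and 0.52 for sgk1.

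**Figure D2:**
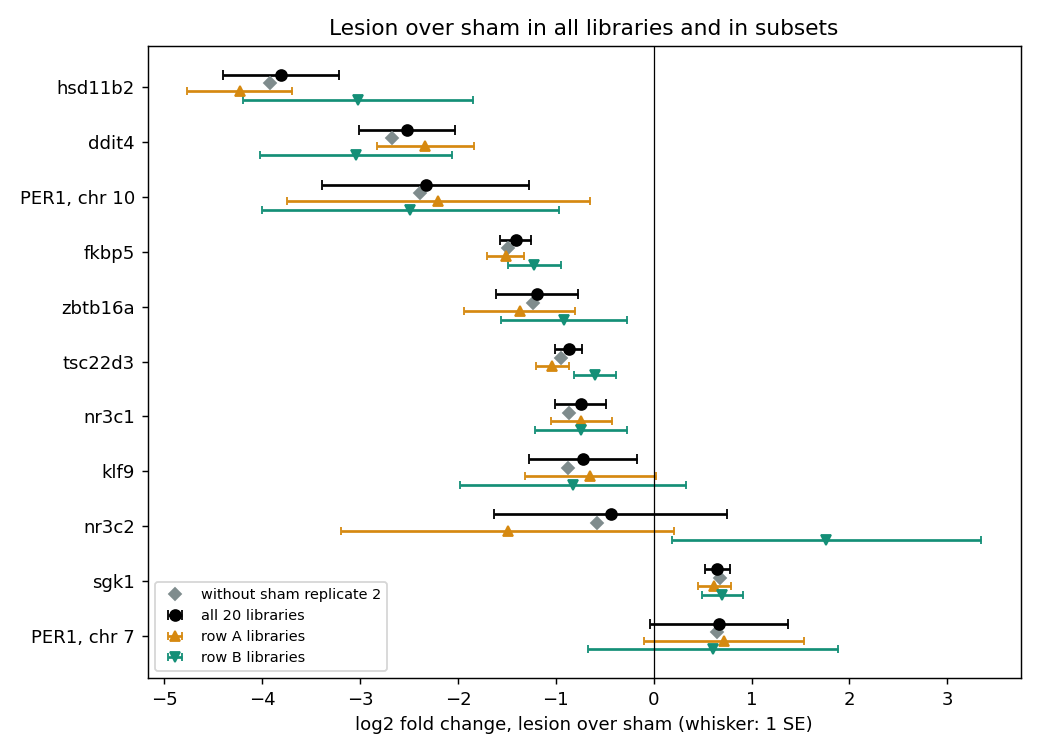
Log2 fold change of each gene, lesion over sham, on a linear axis, in all 20 libraries, without sham replicate 2, in row A libraries and in row B libraries. Points are the fitted values and whiskers 1 SE (none is drawn without sham replicate 2); nr3c2 is the gene whose row A and row B values, -1.49 and 1.76, lie on opposite sides of 0.

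Markers of the lineage and of other cells are given beside these genes as summed levels. The summed level of 9 oligodendrocyte markers had a median of 101893 CPM in lesion libraries (range 68529 to 152949) and 142493 CPM in sham libraries (range 95555 to 165803). The 10 ependymoradial glia markers summed to a median of 3220 CPM in lesion libraries (range 1573 to 4703) and 1471 CPM in sham libraries (range 616 to 2991). The largest part was a FABP7 row (ENSDARG00000007697), with medians of 1967 CPM in lesion libraries and 664 CPM in sham libraries. It was not called (edgeR adjusted p = 0.0692). The 6 keratinocyte markers, led by krt8, summed to 354 to 1007 CPM in lesion libraries and 8.41 to 32.1 CPM in sham libraries. The 10 OPC markers overlapped widely, at 6741 to 11135 CPM in lesion libraries and 8246 to 12124 CPM in sham libraries. Neuron markers summed to 361 to 1339 CPM in lesion libraries and 357 to 1002 CPM in sham libraries. Of 14 neuron rows 6 were tested and 0 called. Below the filter, isl1 had 2523 counts in 6 lesion libraries and mnx1 had 1676 counts in 5. CHAT had 302 counts in 3 lesion libraries and SLC17A6 (ENSDARG00000041150) had 696 counts in 6. None of these had a count in sham libraries, and none was tested. Lesion libraries had a count in more genes, and the share of all genes counted only there was not computed. Nothing is therefore read from these rows. The 6 tested rows had log2 fold changes of -0.32 (elavl3), -0.35 (elavl4), -0.30 (SYT1), 0.41 (SNAP25), 0.66 and 1.49 (STMN2). Endothelial markers summed to 3.02 to 99.2 CPM in lesion libraries and 0 to 26.4 CPM in sham libraries. Fibroblast and pericyte markers summed to 0.387 to 192 CPM in lesion libraries and 0 to 78.4 CPM in sham libraries, and erythrocyte markers to 0 to 14.7 CPM in lesion libraries and 0 to 0.574 CPM in sham libraries. Of the myelin genes edgeR called mbpb higher (log2 fold change 2.28) and mbpa (-1.06), mpz (-0.53) and cldnk (-0.39) lower, but cldnk in 5 of 20 leave-one-out fits (adjusted p 0.0165 to 0.0816). Of the ependymoradial markers it called gfap (3.68), s100b (1.18) and FOXJ1 (7.47) higher and SLC1A3 (ENSDARG00000104431, -1.88) lower. The call of gfap was lost without lesion replicate 1 or 10, with an adjusted p of up to 0.0813. Of the keratinocyte markers it called krt8 and krt18a.1 higher, the second in 6 of 20 leave-one-out fits (adjusted p 0.00416 to 0.118). The keratinocyte sum was nearly all krt8, at 345 to 977 CPM in lesion libraries and 1 count in all sham libraries together, while krt4 had 3 counts and krt5 1 count in all lesion libraries, and epcam had a median of 9.12 CPM in lesion libraries and 8.81 CPM in sham libraries. Sham replicate 2 had the lowest oligodendrocyte sum and the highest ependymoradial sum of the sham libraries. The part of these cells, and of the number of detected genes, in the levels of the 11 genes was not tested.

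Per kilobase of exon, the order of the genes changed between groups. In lesion libraries the highest levels were 295 CPM per kb for tsc22d3 and 259 CPM per kb for sgk1, which differed by less than the larger of their SDs. Next came fkbp5 at 101 CPM per kb and nr3c1 at 14.9 CPM per kb, and the ranges of sgk1 and fkbp5, and of fkbp5 and nr3c1, did not overlap. Below nr3c1, klf9 (10.4), PER1 of chromosome 7 (8.06), ddit4 (7.00), zbtb16a (6.24), hsd11b2 (5.98), nr3c2 (2.67) and PER1 of chromosome 10 (0.35) followed, all in CPM per kb, and no neighbours differed beyond the larger SD. In sham libraries tsc22d3 led at 540 CPM per kb, ahead of fkbp5 at 268, sgk1 at 165, hsd11b2 at 83.8 and ddit4 at 40.2 CPM per kb, and each of these steps exceeded the larger SD although the ranges overlapped. The sham order then ran nr3c1 (25.0), klf9 (17.1), zbtb16a (14.3), PER1 of chromosome 7 (5.07), nr3c2 (3.62) and PER1 of chromosome 10 (1.77), again in CPM per kb. Of these lower steps, only that between zbtb16a and PER1 of chromosome 7 exceeded the larger SD. Thus the mean of hsd11b2 stood above that of nr3c1 in sham libraries and below it in lesion libraries. In sham replicate 7 the order was not that of the means, at 35.4 CPM per kb for hsd11b2 and 35.8 CPM per kb for nr3c1.

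**Figure D3:**
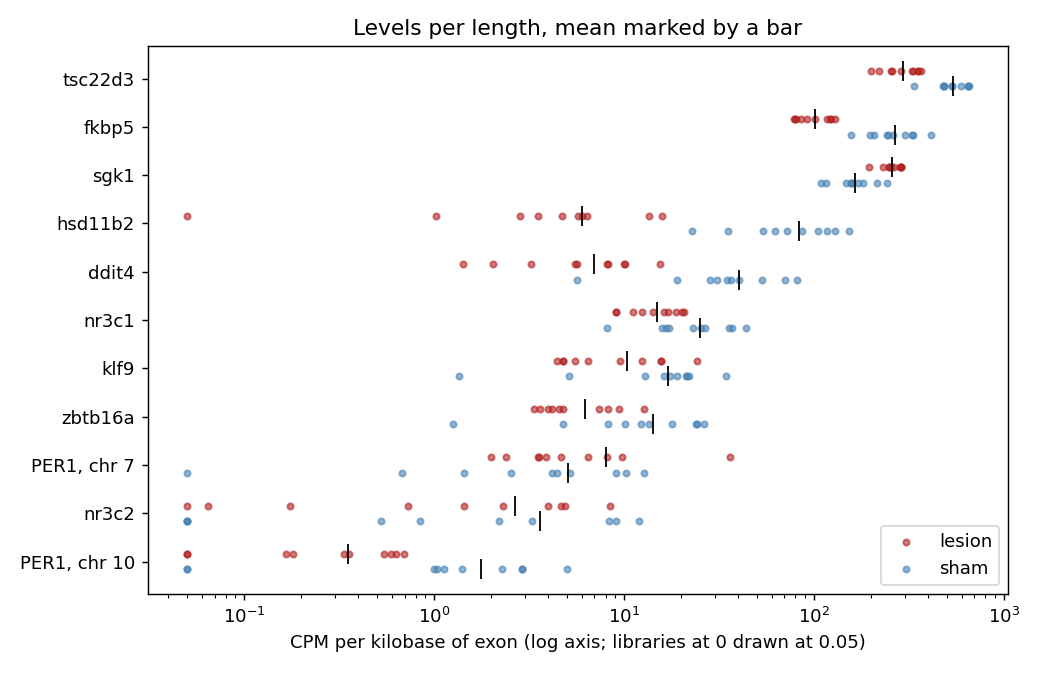
Level of each gene per library in CPM per kilobase of exon on a log axis, with lesion libraries above sham libraries for each gene, the mean of each group as a bar, and values of 0 drawn at 0.05. The level of hsd11b2 averages 5.98 CPM per kb in lesion libraries and 83.8 in sham libraries, while tsc22d3 has the highest mean of the 11 in both groups, by less than the larger SD over sgk1 in lesion libraries.

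Co-variation was measured within each group, on log2 CPM over 10 libraries, so the difference between the group means does not enter it. That difference can still enter the sham pairs through sham replicate 2, which lay 0.305 of the way to the lesion mean. The 11 genes form 55 pairs, and p-values were adjusted over the 110 pairs of both groups. By two-sided permutation tests, 0 pairs passed an adjusted p of 0.05 in lesion libraries and 0 in sham libraries, with 5 lesion pairs and 11 sham pairs at an unadjusted p under 0.05. The median Pearson r was 0.25 in lesion libraries, with 43 of 55 pairs above 0, and 0.17 in sham libraries, with 31 of 55 above 0. Over all pairs of tested genes the median r was -0.007 in lesion libraries and 0.005 in sham libraries. A Pearson r of at least 0.8 in size occurred in 0 of 55 lesion pairs, against 0.84% of all gene pairs, and in 4 of 55 sham pairs, against 0.824% of all gene pairs. Without sham replicate 2 these 4 pairs had an r of 0.50 to 0.76. The share over all gene pairs without that library was not computed, so nothing is read from the count of 4.

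Among lesion libraries, hsd11b2 and nr3c1 had a Pearson r of 0.71 and a Spearman rho of 0.65 (two-sided permutation p = 0.00967 and 0.0502, adjusted p = 0.213 and 0.665, n = 10). The Pearson r was 0.51 without the 2 libraries farthest from the median of hsd11b2. In sham libraries the same pair had a Pearson r of 0.22 (permutation p = 0.533, adjusted p = 0.775, n = 10) and a Spearman rho of -0.07 (permutation p = 0.865, adjusted p = 0.98). Whether the pair differs between groups was not tested.

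By Pearson r, the most negative pair in both groups was ddit4 with sgk1, which also differ in opposite directions between lesion and sham libraries. In lesion libraries their Pearson r was -0.47 and rho -0.64 (two-sided permutation p = 0.174 and 0.0544, adjusted p = 0.66 and 0.665, n = 10). In sham libraries r was -0.63 and rho -0.66 (permutation p = 0.0549 and 0.0435, adjusted p = 0.336 and 0.665, n = 10). Without the 2 libraries farthest from the median of ddit4, r was -0.46 in lesion libraries and -0.79 in sham libraries, and without sham replicate 2 it was -0.55 in sham libraries. Neither group passed the adjusted threshold.

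The number of detected genes moved with some of the 11 genes within a group (Pearson r over 10 libraries, which share depth and sorting, given without p). For nr3c2 this r was -0.77 in lesion libraries and 0.59 in sham libraries. For zbtb16a it was -0.45 in lesion libraries and 0.79 in sham libraries, and for fkbp5 -0.12 in lesion libraries and -0.59 in sham libraries. For hsd11b2 it was 0.01 in lesion libraries and -0.11 in sham libraries. The part of this number in the pairs was not tested beyond the correlations with it held constant.

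Among sham libraries, fkbp5 and tsc22d3 had a Pearson r of 0.85 and a Spearman rho of 0.90 (two-sided permutation p = 0.00188 and 0.00103, adjusted p = 0.134 and 0.113, n = 10). The Pearson r was 0.69 without the 2 libraries farthest from the median of fkbp5, and 0.76 without sham replicate 2. With the number of detected genes held constant, the r of this pair was 0.92 (permutation, adjusted p = 0.0099), the only pair called in that setting. That permutation made no allowance for having fitted the number of detected genes, so its p may be too small. It was not repeated without sham replicate 2. In lesion libraries the r of fkbp5 and tsc22d3 was 0.04 (permutation p = 0.913, adjusted p = 0.98) and rho was 0.10 (permutation p = 0.785, adjusted p = 0.98).

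The other 3 sham pairs at this size all include klf9. They were ddit4 with klf9 at a Pearson r of 0.87 and rho of 0.67, hsd11b2 with klf9 at 0.84 and rho of 0.54, and tsc22d3 with klf9 at 0.83 and rho of 0.67. Permutation p-values of the Pearson r were 0.00365, 0.00315 and 0.00851, with adjusted p of 0.134, 0.134 and 0.213, and those of rho were 0.0391, 0.114 and 0.0393, with adjusted p of 0.665, 0.869 and 0.665 (n = 10). Without the 2 libraries farthest from the median on the first gene of each pair, r was 0.62, 0.27 and 0.48. Without sham replicate 2 it was 0.60, 0.68 and 0.50. All 3 relations were weaker without sham replicate 2, in which klf9 stood at 1.99 CPM, against 7.54 to 50.0 CPM in the other sham libraries.

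Sham replicate 2 had the lowest value of its group, or tied for it, in 7 of the 11 genes. For nr3c2 this was a tie at 0 with sham replicates 3 and 5. The share over all genes tested was not computed, and the 11 were chosen on this contrast, so nothing is read from the count. It had 59.4 CPM of hsd11b2, against 91.7 to 396 CPM in the other 9 sham libraries. It had 499 CPM of fkbp5, against 629 to 1310.5 CPM in the others. For sgk1, higher in lesion libraries, it had 736 CPM, the second highest of the sham libraries. In these 3 genes sham replicate 2 lay towards the lesion libraries, as it did over the 788 other called genes. For zbtb16a and PER1 of chromosome 10, whose fold changes were below 0, it ranked 5 from the lowest of the 10 sham libraries.

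**Figure D4:**
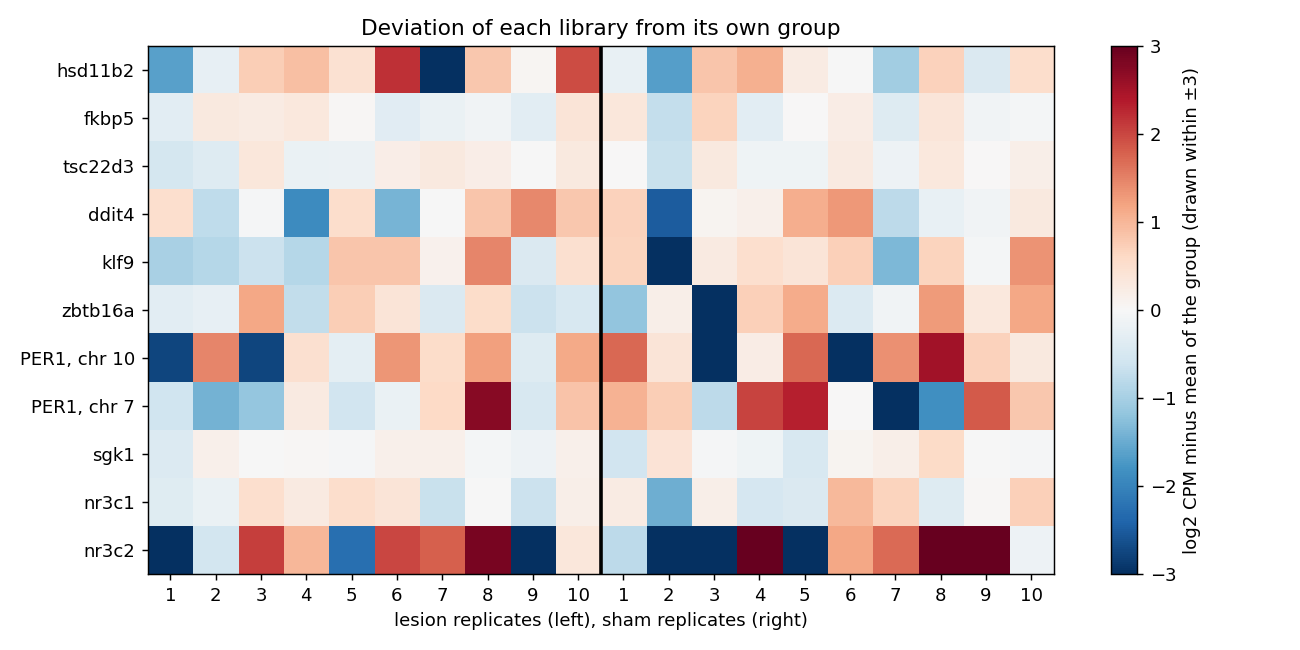
Deviation of each gene from its group mean on the log2 CPM scale, by library, with lesion libraries left of sham libraries and colours drawn within 3 log2 units of 0. In sham replicate 2 hsd11b2, nr3c1, fkbp5, tsc22d3, ddit4 and klf9 are all at their lowest sham value.

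Deviations from the group means were used to find the genes most like hsd11b2 and nr3c1 (Pearson r over 20 libraries, which share depth and handling, given without p). These deviations leave out the difference between the group means, but keep the place of sham replicate 2. Closest to hsd11b2 were UQCC1 (0.85), SLC25A6 (0.79), YIPF5 (0.77), tmprss5 (0.76) and CDC23 (0.72). Lesion replicate 7, without a count of hsd11b2, carries much of this, since without it the values were 0.54, 0.47, 0.24, 0.58 and 0.28. Among the genes most opposite to hsd11b2 were c7b (-0.69), crlf1a (-0.62), SEH1L (-0.59) and naca (-0.57), at -0.47, -0.47, -0.72 and -0.61 without that library. Closest to nr3c1 were zgc:174888 (0.79), ndufv3 (0.78), CCSER2 (0.78), NUDT2 (0.77) and NIPAL3 (0.77), at 0.78, 0.76, 0.79, 0.82 and 0.79 without it. By group, in the order given, r of the genes closest to hsd11b2 was 0.89, 0.85, 0.88, 0.85 and 0.80 (lesion) and 0.53, 0.62, -0.11, 0.66 and 0.15 (sham). For the opposite genes it was -0.80, -0.67, -0.71 and -0.59 (lesion) and -0.55, 0.09, -0.69 and -0.75 (sham). With nr3c1 it was 0.68, 0.80, 0.31, 0.61 and 0.69 (lesion) and 0.84, 0.77, 0.89, 0.83 and 0.80 (sham). The log2 fold change of crlf1a was 14.4, lesion over sham, so its sham r of 0.09 rests on levels near 0 and nothing is read from it.

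The rest of the pathway was read from lists of enzymes, chaperones, coregulators, receptors, targets and hormones. These lists, and that of immediate early genes, were chosen with earlier results of these data known. Their counts of called genes are therefore a description. Over the 10467 genes tested, edgeR called 4.34% higher and 3.24% lower, with a median log2 fold change of 0.03. Of 26 steroid metabolism genes matched, 9 passed the filter and 1 was called, sult2st1, a sulfotransferase. It averaged 315 ± 94.9 CPM in lesion libraries and 466 ± 99.1 CPM in sham libraries (SD, n = 10 each; edgeR adjusted p = 0.045, log2 fold change -0.57 ± 0.17). The call held in 6 of 20 fits that left out 1 library, where its adjusted p ran from 0.0233 to 0.0903. The gene hsd11b1la of this list was below the filter, with a count in 8 lesion libraries and 1 sham library (494 and 202 counts in all). The gene h6pd, which supplies cofactor to the mammalian cortisone-reducing enzyme, had a median of 20.1 CPM in lesion libraries and 27.9 CPM in sham libraries (edgeR adjusted p = 0.987, log2 fold change -0.15). Of 14 stress axis hormone and hormone receptor genes, 13 were below the filter and 4 of these had no count in any library, including mc2r, the receptor of adrenocorticotropic hormone.

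Of 20 steroid receptor chaperone genes, 19 were tested, 2 were called higher and 0 lower by edgeR, with a median log2 fold change of 0.17 and 6 at an unadjusted p under 0.05 in either direction. DESeq2 called 1 lower and limma-voom 0. The Hsp90 gene hsp90ab1 averaged 3552 ± 355 CPM in lesion libraries and 1690 ± 421 CPM in sham libraries (log2 fold change 1.07 ± 0.12, edgeR adjusted p = 8.09e-07). The Hsc70 gene HSPA8 (ENSDARG00000068992) averaged 3525 ± 292 CPM in lesion libraries and 1604 ± 394 CPM in sham libraries (log2 fold change 1.14 ± 0.12, edgeR adjusted p = 3.56e-07). In both, no lesion library reached down to a sham library. The second HSPA8 row (ENSDARG00000037403) and hsp90aa1.1 were not called (log2 fold change -0.34 and -0.44, edgeR adjusted p = 0.963 and 0.463). The related co-chaperone gene fkbp4 had a median of 188 CPM in lesion libraries and 229 CPM in sham libraries (log2 fold change -0.11, edgeR adjusted p = 0.965).

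Of 25 coregulator genes, 22 were tested and 1 was called higher, SMARCA4 (ENSDARG00000077226), a chromatin remodelling ATPase, at 103 ± 29.4 CPM in lesion libraries and 54.2 ± 21.4 CPM in sham libraries (SD, n = 10 each; log2 fold change 0.93 ± 0.25, edgeR adjusted p = 0.0212). The call was lost without lesion replicate 1 (edgeR adjusted p = 0.0582). DESeq2 called 1 coregulator gene higher and limma-voom 4, and both called 0 lower. Of 8 other steroid receptor genes 3 were tested, and edgeR called 0, with 0 at an unadjusted p under 0.05 and 0 called by DESeq2 or limma-voom. Of 14 relatives of the 11 genes 8 were tested, with the same counts of 0. These relatives include sgk3, tsc22d1, per2, per3 and zbtb16b, whose log2 fold changes were -0.11, -0.28, 0.91, -0.87 and 0.64.

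Of 67 other genes reported to respond to glucocorticoids, 49 were tested, and edgeR called 4 higher and 6 lower. DESeq2 called 5 higher and 10 lower, and limma-voom 12 higher and 7 lower, so the balance of directions depended on the tool. The median log2 fold change was 0.08, against 0.03 over all genes. Both GLUL rows, which encode glutamine synthetase, fell. GLUL of chromosome 2 (ENSDARG00000099776) averaged 2275 ± 775 CPM in lesion libraries and 4082 ± 719 CPM in sham libraries (log2 fold change -0.84 ± 0.16, edgeR adjusted p = 0.000716). GLUL of chromosome 6 (ENSDARG00000100003) averaged 1404 ± 281 CPM in lesion libraries and 3036 ± 819 CPM in sham libraries (log2 fold change -1.11 ± 0.15, edgeR adjusted p = 1.16e-05). The antiproliferative gene TOB1 averaged 317 ± 59.1 CPM in lesion libraries and 721 ± 118 CPM in sham libraries, without overlap (log2 fold change -1.19 ± 0.13, edgeR adjusted p = 4.51e-07).

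Higher in lesion libraries were both GADD45B rows, growth arrest and stress genes, and nfkbiaa, an inhibitor of NF-kB. GADD45B of chromosome 2 (ENSDARG00000013576) averaged 720 ± 209 CPM in lesion libraries and 171 ± 82.0 CPM in sham libraries (log2 fold change 2.08 ± 0.24, edgeR adjusted p = 1.40e-06). GADD45B of chromosome 11 (ENSDARG00000027744) averaged 2058 ± 381 CPM in lesion libraries and 1130 ± 234 CPM in sham libraries (log2 fold change 0.86 ± 0.13, edgeR adjusted p = 5.04e-05). Transcripts of nfkbiaa stood at 2.58 to 57.3 CPM in lesion libraries and no count in any sham library (edgeR adjusted p = 4.14e-05). This is at least 52.7-fold higher, against a floor of 3 counts per sham library. The related gene nfkbiab was not called, with medians of 503 CPM in lesion libraries and 626 CPM in sham libraries (log2 fold change -0.24, edgeR adjusted p = 0.667). Whether the 11 genes and these lists share a direction was not tested as a set.

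Of 19 immediate early genes, which encode transcription factors induced soon after many stimuli, 12 were tested. By edgeR 4 were called higher and 0 lower, with 6 at an unadjusted p under 0.05 in either direction. The median log2 fold change was 0.87, against 0.03 over all genes. DESeq2 called 5 higher and limma-voom 6, and both also called 0 lower. FOS averaged 1413 ± 392 CPM in lesion libraries and 746 ± 284 CPM in sham libraries (log2 fold change 0.92 ± 0.22, edgeR adjusted p = 0.0077). JUNB of chromosome 3 (ENSDARG00000104773) averaged 1224 ± 318 CPM in lesion libraries and 363 ± 166 CPM in sham libraries (log2 fold change 1.75 ± 0.23, edgeR adjusted p = 7.05e-06). JUNB of chromosome 1 and atf3 were called with log2 fold changes of 1.23 and 1.45 (edgeR adjusted p = 0.0242 and 0.0269), but in 18 and 14 of 20 fits that left out 1 library. The fits that lost JUNB of chromosome 1 were without lesion replicate 1 or 7, and those that lost atf3 were without lesion replicate 5, 7 or 9 or sham replicate 4, 5 or 6, with adjusted p of up to 0.0573 and 0.0529. The part of immediate early transcription in the levels of the 11 genes was not tested.

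**Figure D5:**
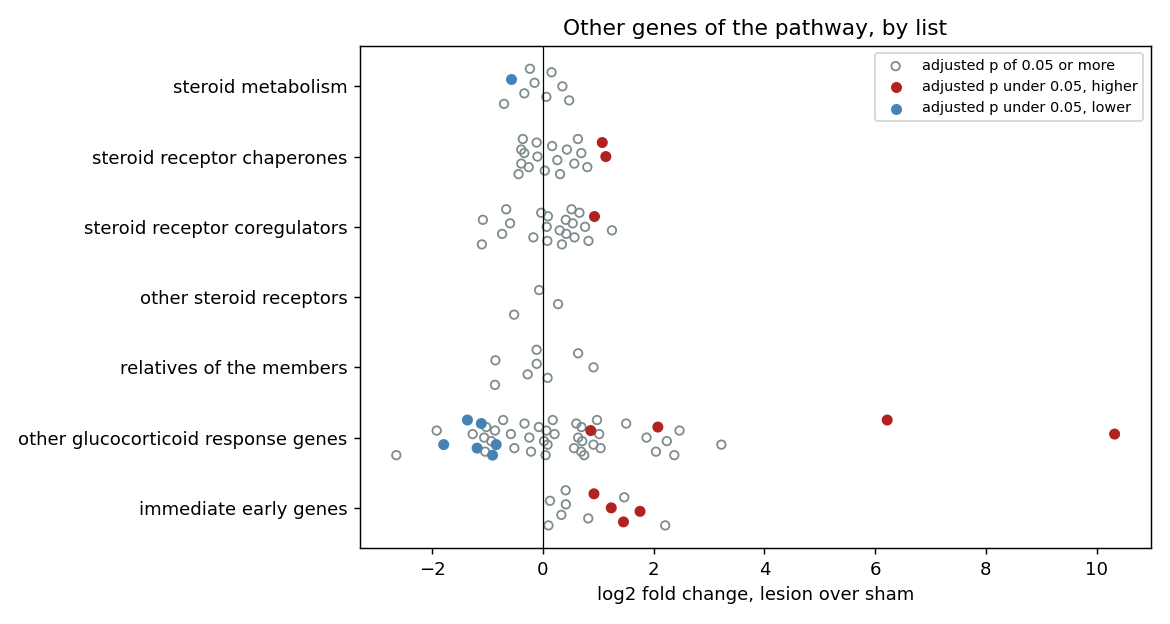
Log2 fold change, lesion over sham, of each tested gene of the related lists, with 1 line of points per list on a linear axis. Most points lie near 0, the chaperone, coregulator and immediate early lists have called genes above 0 only, and the value of nfkbiaa, which has no sham count, depends on the prior count.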

How the data were processed

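The authors deposited 1 table of raw read counts per gene with each gene's exon length in bases. Per the submitters' processing notes, bcl2fastq 2.19.1, GSNAP and featureCounts 1.6.2 were used with build GRCz10. Per the file headers, genes came from Ensembl release 87, reads needed a mapping quality of at least 1, and strand was ignored (setting 0), so overlapping genes cannot be told apart. Any use of molecular identifiers is not given in the sources, and intervals and floors cover counting error only. Of 32358 rows, 92 spike-in rows with 2 counts in all were left out. Names covered 26433 of 32266 genes. Each column was matched to its sample by title.

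Counts were fitted in edgeR 4.0.16 under R 4.3.3 with filterByExpr, TMM scaling and a quasi-likelihood F test, two-sided, with the group as the only term, 10 libraries a group. Benjamini-Hochberg adjustment ran over 10467 genes, with a threshold of 0.05. Replicate numbers follow accession order. Levels are CPM on TMM-scaled totals, and levels of different genes are compared per kilobase. Correlations used log2 CPM with a prior count of 2 and 100000 resamples (SciPy 1.17.1). Alternatives were DESeq2 1.42.0, its size factors, limma-voom 3.58.1, no filter, libraries left out, rows and the number of detected genes. The main edgeR fit and the permutation test of pairs were tested on simulated data, and the alternatives were not.

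The 11 genes and the 17 other lists were chosen with earlier results of these data known. The lists matched 263 genes, and 15 symbols had no match. The text names every one of the 11 genes, the called genes of each list (the 6 with the smallest p where there are more), the 5 genes with the highest and the 5 with the lowest correlation with hsd11b2, the 5 highest with nr3c1, and olig2 and sox10. One gene that the rule names is not reported here. Promoter sequences were not used here.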

Additional observations from a re-analysis of the deposited data

Results flagged for a closer look

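PER1 of chromosome 7 reached 245 CPM in lesion replicate 8, far from the other lesion libraries, of which the next had 65.9 CPM. The gap was 0.774 of the range of the group, above Dixon's critical value for 10 libraries. On CPM this was the only one of 22 groups checked (11 genes in lesion and in sham libraries) to pass that value. Chance gives about 1 in 20 where values are normally distributed, which CPM need not be. The check was not run on log2 CPM, where the 2 values were 7.94 and 6.05, so the flag may depend on the scale. In the same library klf9, at 35.6 CPM, and nr3c2, at 29.8 CPM, were also at the highest value of the lesion libraries. Its cause was not tested.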

How the results depend on the processing

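No paired analysis was possible because the replicate numbers follow accession order and pair no samples. The log2 fold changes of the 11 genes were recomputed in 29 settings each, 319 in all. None of the called genes changed sign, and 318 values moved by less than the SD of log2 CPM between libraries. The exception was fkbp5 with detected genes as covariate, at -0.996. That SD is a wide limit, since nr3c2 stayed within it at 1.76 in row B, against -0.44 in all libraries. The count of 318 therefore says little about how stable the values are. Of the 11 genes, edgeR called 0 higher and 1 lower in row B alone, with 1 higher and 4 lower at an unadjusted p under 0.05. With the detected-gene covariate edgeR called 0 higher and 0 lower, again with 1 and 4 at an unadjusted p under 0.05. DESeq2 called 1 higher and 6 lower, adding nr3c1 and zbtb16a. Without sham replicate 2 edgeR also called nr3c1, and without lesion replicate 3 or sham replicate 3 it called zbtb16a. Of the other lists, 17 genes were called higher with all libraries, 31 by limma-voom, 44 without a filter, 10 in row B, 6 with the covariate and 13 to 20 with 1 library left out. Called lower were 11, against 18 by DESeq2, 20 without a filter, 7 in row A, 2 in row B, 2 with the covariate and 8 to 13 with 1 library left out. Over all genes, 454 higher and 339 lower became 207 and 40 in row B, 140 and 36 with the covariate, and 2780 and 758 without a filter. DESeq2 called 562 lower, limma-voom 1380 higher, and row A alone 201 lower. Correlated pairs in sham libraries numbered 0, and 1 with the number of detected genes held constant. Leaving out sham replicate 2, chosen after seeing the data, gave 0 pairs in either group. The causes were not tested; a row holds 6 or 4 libraries of each group in place of 10. The genes nr3c2 and PER1 of chromosome 10 had counts of 0 in some libraries, where 3 counts correspond to 0.29 to 0.429 CPM. Among sham libraries nr3c2 ran from 0 to 438 counts and PER1 of chromosome 10 from 0 to 217 counts. The part of depth in this scatter was not tested.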

Other observations

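Of the other genes reported to respond to glucocorticoids, 10 were called, and the 4 that lie beyond the rule for named genes are given here, chosen after their values were seen. CRY1 of chromosome 4 (ENSDARG00000045768), a circadian repressor, fell, averaging 75.0 ± 32.5 CPM in lesion libraries and 193 ± 77.3 CPM in sham libraries (SD, n = 10 each; log2 fold change -1.36 ± 0.28, edgeR adjusted p = 0.00203). The second CRY1 row (ENSDARG00000011583) was not called (edgeR adjusted p = 0.188, log2 fold change -1.04). The nuclear receptor gene nr1d2a averaged 244 ± 120 CPM in lesion libraries and 459 ± 171 CPM in sham libraries (log2 fold change -0.91 ± 0.25, edgeR adjusted p = 0.0228), and without lesion replicates 2, 9 and 10 its adjusted p was 0.145. The related row NR1D2 (ENSDARG00000009594) was not called (edgeR adjusted p = 0.946, log2 fold change 0.18).

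The lipase inhibitor gene angptl4 rose, with 250 to 832 CPM in lesion libraries and 0 to 38.7 CPM in sham libraries, where 3 libraries had a count (edgeR adjusted p = 0.000723). IRS2 of chromosome 1 (ENSDARG00000037099), an insulin receptor substrate, averaged 18.6 ± 10.5 CPM in lesion libraries and 64.5 ± 38.3 CPM in sham libraries (SD, n = 10 each; log2 fold change -1.79 ± 0.52, edgeR adjusted p = 0.0339). Its call held in 9 of 20 fits that left out 1 library, with adjusted p from 0.00654 to 0.0697, and was lost without lesion replicates 2, 9 and 10 (edgeR adjusted p = 0.188). The second IRS2 row (ENSDARG00000075282) was not called (edgeR adjusted p = 0.702, log2 fold change -0.33).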
